A study of Mus musculus with 4 samples.

Results

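The genes of cell cycle control and DNA replication were examined in 4 cultured mouse melanoma lines. Members were chosen by gene symbol alone: the MCM, ORC and E2F families, the A, B, D and E cyclins, the DNA polymerase subunits whose symbols run from Pola to Pole followed by a digit, and a list of named kinases, phosphatases, checkpoint genes and inhibitors. The rule took 60 of the 33012 probes of the array, which stand for 58 of the 15694 genes with a symbol. Mki67 and Aurkb, both named by the rule, and Ccnb1 had no probe under these symbols. Aurka was on the array only as Stk6 and was therefore no member. Cdk1 was measured as Cdc2a. Mcm3ap, which encodes a nuclear mRNA export factor, matched only through the start of its symbol.

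Values of 1 array per line are used here, from the Applied Biosystems mouse survey platform, which reads 1 chemiluminescent signal per probe; second arrays of the lines matched no sample label and were not used. B16 is the parental B16F1 line of C57BL6 mouse melanoma. Cells placed intradermally in the back skin of C57BL6 mice gave lymph node metastases, from which B16-RI was cultured. A second round with B16-RI gave B16-R2 (B16-RII in the labels) from lymph node metastases and B16-R2L (B16-RIIL) from lung metastases. All 4 lines were cultured in DMEM with 20% fetal bovine serum before RNA isolation. The labels name no engineered allele and no drug treatment. Each array held RNA pooled over passage numbers of 1 line, and B16-R2 and B16-R2L are each 1 derived line, so the origin of the metastasis and the history of that line cannot be told apart. With 1 array per line in use, no difference has a replicate check and no p-value is given.

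Replication origins are prepared in G1, when the origin recognition complex (ORC) and Cdc6 load the MCM helicase onto DNA. Cyclin D with Cdk4 or Cdk6, then cyclin E with Cdk2, release E2F transcription factors from the retinoblastoma protein, and E2F drives the genes of S phase. Cyclin A with Cdk2 and Cdk1 carries cells through S phase and G2, and cyclin B with Cdk1 carries them into mitosis. CDC25 phosphatases activate these kinases and CDK inhibitors such as p27 (Cdkn1b) restrain them. B16 lines are fast-growing tumour cells in which this machinery is in use.

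E2F sites are a known feature of the promoters of replication genes. In the 250 bases before the transcription start, searched on both strands for the E2F motifs TTTCGCGC, TTTGGCGC and TTTCCCGC, 12 of the 50 member genes with a promoter entry (24.0%) held a match, against 3.79% of the 5853 genes that had an entry and a probe detected on every array, and 1.78% of all 27025 genes with an entry. The CCAAT box (CCAAT, either strand) lay before 31 of the 50 (62.0%, against 41.7% of the detected genes and 37.5% of all with an entry), and the CHR motifs TTTGAA and TTCGAA, also on either strand, before 10 (20.0%, against 14.7% and 19.6%), a share close to that of all genes with an entry. A match is a description of letters and not a bound site. The 6 stretches printed here, of 120 bases each, were picked from the 12 members with an E2F match. Other members named below, such as Cdk6, Cdkn1b, Cdkn2c, Cdc25b, Ccnd3, Rrm2 and Tyms, had no match. The E2F match, or 2 overlapping matches in Mcm5, is in capitals. All are read 5′ to 3′ on the strand of the gene, from RefSeq on build GRCm38.p6.
Mcm5 (a subunit of the MCM helicase), chr8:75109300-75109419, plus strand: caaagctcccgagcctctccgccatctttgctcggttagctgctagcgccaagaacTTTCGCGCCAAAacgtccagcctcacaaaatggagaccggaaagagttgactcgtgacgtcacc
Orc1l (now Orc1, the largest subunit of the origin recognition complex), chr4:108579334-108579453, plus strand: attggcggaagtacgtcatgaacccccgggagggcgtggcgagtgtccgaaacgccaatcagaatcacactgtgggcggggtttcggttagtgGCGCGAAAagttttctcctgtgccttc
Cdc6 (the MCM loader), chr11:98907957-98908076, plus strand: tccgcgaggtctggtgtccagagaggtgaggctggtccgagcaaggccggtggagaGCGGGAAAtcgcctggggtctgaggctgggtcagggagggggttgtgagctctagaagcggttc
Cdc25a (a phosphatase of S phase entry), chr9:109875456-109875575, plus strand: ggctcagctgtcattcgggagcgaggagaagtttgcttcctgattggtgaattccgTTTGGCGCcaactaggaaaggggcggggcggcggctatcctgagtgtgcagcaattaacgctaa
E2f7 (a repressing E2F), chr10:110745189-110745308, plus strand: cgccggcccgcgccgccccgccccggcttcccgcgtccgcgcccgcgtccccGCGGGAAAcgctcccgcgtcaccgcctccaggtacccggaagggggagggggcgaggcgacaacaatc
Cdk2 (the kinase of cyclins E and A), chr10:128705128-128705247, minus strand: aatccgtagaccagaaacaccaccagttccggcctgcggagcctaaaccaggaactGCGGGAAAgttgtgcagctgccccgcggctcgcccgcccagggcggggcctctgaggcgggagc

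These matches began 153 and 149 bases before the start of Mcm5, 27 before Orc1l, 138 before Cdc6, 67 before Cdc25a, 198 before E2f7 and 140 before Cdk2. The other members with a match were Cdc2a, Mcm6, Mcm7, Orc3l, Pola1 and Pole4. Ccna2, Ccnd1, Ccnd2, Ccne2, Cdc25c, E2f4, E2f5 and Mcm4 had no promoter entry.

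The levels given below are log2 of the normalized signal, centred so that 0 is the median of all probes of the same scaling set detected on every array. A probe counted as detected where its signal-to-noise ratio, S/N, reached 3 and its flag did not exceed 5000. Each gene is represented by its brightest probe. Where a compared array did not detect a probe, the difference was taken to its undetected signal and is called a bound. It is not a strict limit, because that signal is itself below the detection limit. Named genes were also computed under 8 settings, which are scalings and probe rules. The probe rules cannot change a gene with a single probe, and none of the 8 settings changes the detection limit. Of the 58 members, 50 were detected in each of B16, B16-RI and B16-R2, 53 in B16-R2L and 47 on every array, while 8407 to 8873 of all genes were detected. As a yardstick of probe and spot error, the 539 genes with 2 probes detected on every array were used: the difference between lines from one probe departed from that of the other by a median of 0.21 to 0.29, with a 90th percentile of 0.67 to 0.80. This spread does not include the variation between cultures. Brightness differs between probes for reasons other than transcript number, so levels are compared only between lines for the same gene.

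Most of the replication and mitosis genes were slightly higher in the lymph node lines B16-RI and B16-R2 than in B16, and those of the lung line B16-R2L were at about the level of B16. Relative to B16, the 47 members seen on every array had a median difference of 0.22 in B16-RI (0.03 over all 7444 genes detected on every array), 0.24 in B16-R2 (0.02) and -0.02 in B16-R2L (-0.00). Above 0 lay 35 members in B16-RI (74.5%, against 54.3% of all genes), 37 in B16-R2 (78.7%, against 52.9%) and 23 in B16-R2L (48.9%, against 49.8%). After quantile normalization the first 2 counts were 27 (57.4%, against 49.7%) and 30 (63.8%, against 51.7%). The size of the excess over all genes depended on the scaling. It was 0.18 in B16-RI and 0.21 in B16-R2 as centred here, and 0.04 and 0.12 after quantile normalization. The 3 comparisons share the B16 array, so a low B16 signal would raise all of them.

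Few members changed by 2-fold. In B16-RI 2 of 53 members were at least 2-fold higher than in B16 (3.77%), where 6.07% of all genes were, and 3 were lower (5.66%, against 8.5%). In B16-R2, 2 of 52 were higher (3.85%, against 5.76%) and 3 lower (5.77%, against 8.3%). In B16-R2L, 3 of 55 were higher (5.45%, against 6.9%) and 4 lower (7.27%, against 7.46%). As centred here, none of these shares was above that of all genes. On the deposited values without centring, where the median of all genes itself moved up by 0.22, 0.45 and 0.26 in the 3 lines, the members split into 4 higher and 3 lower for B16-RI (7.55% and 5.66%, against 8.0% and 6.92% of all genes), 7 and 2 for B16-R2 (13.5% and 3.85%, against 12.1% and 5.42%), and 6 and 4 for B16-R2L (10.9% and 7.27%, against 11.6% and 5.96%). Apart from Cdc25b, Cdk2 in B16-R2 and Cdk6 in B16-R2L, every member called over B16 was detected on 1 of the 2 arrays compared, so its difference is a bound.

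**Figure D1:**
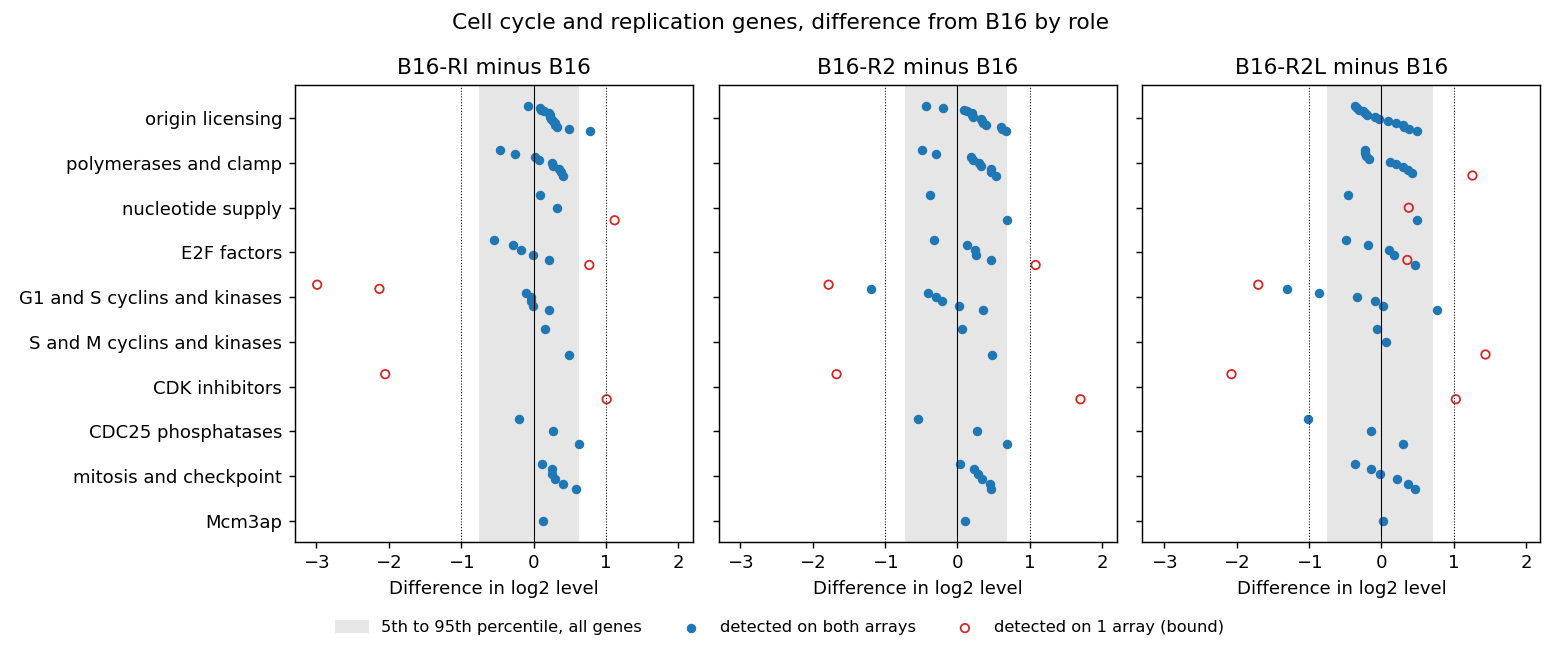
Difference in log2 level of each member gene from B16 (horizontal axis), by role (vertical axis), for B16-RI, B16-R2 and B16-R2L. Filled points were detected on both arrays, open points on 1 (a bound), the grey band spans the 5th to 95th percentile of all genes and the dotted lines mark a 2-fold difference; most licensing, polymerase and mitosis genes sit right of 0 in the first 2 panels, with medians of 0.24 to 0.31, and spread around 0 in the third.

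The span from the lowest to the highest array had a median of 0.47 and a 90th percentile of 0.69 over the 47 members detected on every array, which leaves out Cdk2, Cdk6, Cdkn1b, Cdkn2c and Tyms. Over all genes the median was also 0.47, and the 90th percentile was 1.0. A span of 1 or more was seen in 2 members (4.26%), against 10.0% of all genes. These were Ccnd1 and Cdc25b.

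The licensing genes, which mark and load replication origins, had median differences of 0.24, 0.28 and -0.06 from B16 in B16-RI, B16-R2 and B16-R2L over 14 genes. As centred here, none was called at 2-fold. Mcm5, a helicase subunit, was at 4.68 in B16 and at 5.17, 5.28 and 5.17 in the derived lines. It was thus 1.41-, 1.52- and 1.40-fold higher in the derived lines. Orc1l was at -1.27 in B16 and at -0.49, -0.60 and -0.89 in the derived lines, the largest difference of the group being 0.78 in B16-RI. Cdc6 was at 0.53, 0.77, 1.14 and 0.83. These 3 genes were lowest in B16. Without centring, on the deposited values, all 3 passed 2-fold in B16-R2 over B16. The log2 differences were 1.1 for Orc1l and 1.04 for Cdc6, while Mcm5 went from 393 (B16) to 803 (B16-R2). The Mcm5 value of the lung line, 791, also passed 2-fold over B16. As centred here, Mcm4 took another course, at 3.98, 4.25 and 4.38 in the first 3 lines and 3.67 in B16-R2L, its lowest array. On the deposited values its lowest array was B16, at 242 against 281 in B16-R2L. Mcm2 was at 1.40, 1.53, 0.95 and 1.04, and its differences of -0.44 and -0.36 in the last 2 lines turned positive under some scalings (up to 0.14 and 0.21).

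The DNA polymerases and their clamp had medians of 0.25, 0.30 and 0.12 over 9 genes. The B16-RI value was -0.04 after quantile normalization. Pole4, a small subunit of polymerase epsilon, was at 0.97 in B16 and at 1.38, 1.5 and 1.40 in the derived lines. Pcna, the sliding clamp and a common proliferation marker, was at 4.81, 5.08, 5.03 and 4.58, a range of small differences (0.27, 0.22 and -0.23 from B16) of which that in B16-RI reached -0.04 under another scaling. Pold4, a subunit of polymerase delta, was at -1.41, -1.87, -1.90 and -1.57, lower in B16-RI under every scaling (-0.46 as centred) but not in B16-R2 and B16-R2L (up to 0.09 and 0.40). Pola1, the catalytic subunit of polymerase alpha, was detected only in B16-R2L (S/N 4.39), 2.39-fold above B16 as a bound. Its S/N in B16-R2 was 2.83, just under the limit.

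Genes of nucleotide supply diverged. Rrm2, the regulated subunit of ribonucleotide reductase, was at 3.33 in B16 and at 3.65, 4.0 and 3.82 in the derived lines, higher in all 3. Rrm1, its partner subunit, was at 2.04, 2.13, 1.66 and 1.58, and was lower in B16-R2L (-0.46), while the -0.38 of B16-R2 ran from -0.66 to 0.04 over the scalings. Tyms, the thymidylate synthase, was near the detection limit. It was detected in B16-RI (S/N 4.0) and B16-R2L (S/N 5.25) but not in B16 or B16-R2. Its level in B16-RI was 2.18-fold that of B16 as a bound, which passed 2-fold under 7 of 8 settings.

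Regulators of G1 made up most of the calls over B16, but their probes were dim. With detection required on both arrays, the members called lower were 0 of 47 in B16-RI (0.0%, against 2.43% of all genes) and 1 of 48, Cdk2, in B16-R2 (2.08%, against 2.8%). In B16-R2L they were 2 of 48, Cdk6 and Cdc25b (4.17%, against 2.54%). Cdk2 (mCG18668.2), the kinase of cyclin E, had raw signals of 1544 in B16 and of 195, 1132 and 612 in the derived lines, and was detected in B16 (S/N 7.32) and B16-R2 (S/N 5.34) only. It was 7.97-fold lower in B16-RI than in B16 (a bound), 2.30-fold lower in B16-R2 and 3.24-fold lower in B16-R2L (a bound). The B16-RI and B16-R2L values passed 2-fold under all 8 settings and the B16-R2 value under 5. Cdk6 (mCG115258.1), a cyclin D kinase, had raw signals of 1565, 361, 766 and 817. It was detected in B16 (S/N 10.7) and, barely, in B16-R2L (S/N 3.16). Its level was 4.38-fold lower in B16-RI and 3.44-fold lower in B16-R2 than in B16 (both bounds), and 2.46-fold lower in B16-R2L. These values passed 2-fold under all 8 settings. Cdk4, the other cyclin D kinase, was detected on every array at -1.34, -1.38, -1.64 and -1.67, and its differences from B16 as centred went no lower than -0.33 (-0.56 in B16-R2L and -0.39 to 0.13 in B16-R2 over the settings). Both Cdk2 and Cdk6 were therefore highest on the B16 array.

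Both CDK inhibitors among the members had dim probes, and their differences from B16 ran in opposite directions. Cdkn2c (mCG2421.3), which encodes p18, an inhibitor of Cdk4 and Cdk6, was detected in B16 alone (raw signal 1123, S/N 4.32, against 273, 594 and 343 in the derived lines). It was 4.14-, 3.18- and 4.21-fold lower in B16-RI, B16-R2 and B16-R2L, all bounds, and past 2-fold under all 8 settings. With an S/N of at least 5 required, it would count as detected on no array. Cdkn1b (mCG22259.1), which encodes p27, an inhibitor of Cdk2, was not detected in B16 (raw signal 336, S/N 1.56). It was detected in B16-RI (678, S/N 3.13), B16-R2 (1832, S/N 9.91) and B16-R2L (877, S/N 3.02). Against the undetected B16 signal they were 2.02-, 3.25- and 2.04-fold higher, all bounds, so the size of the rise is not known. A 2-fold difference was passed under 4, 8 and 7 of the 8 settings. The B16-RI and B16-R2L values lay at the limits of both detection and call. Of the inhibitors that are not members, Cdkn2d, which encodes p19, was bright on every array and within 0.11 of B16 in each line. Cdkn1a, which encodes p21, was at 1.03, 0.56, 0.88 and 1.85, and was 0.82 higher in B16-R2L than in B16 and 0.97 higher than in B16-R2.

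The D cyclins, which bind Cdk4 and Cdk6, did not move together. Ccnd1 was at 3.11, 3.32 and 2.71 in the first 3 lines and at 2.24 in B16-R2L. Its difference from B16 in B16-R2L was -0.86, with a range of -1.17 to -0.85 over the settings, and lay beyond the 5th percentile of all genes (-0.74). The difference in B16-R2 was -0.40 (-0.64 to 0.03) and that in B16-RI 0.21 (-0.08 to 0.22). Ccnd3 was at 0.78, 0.77, 1.14 and 1.55, that is 0.77 higher in B16-R2L than in B16 (0.77 to 1.34) and above the 95th percentile of all genes (0.70). Ccnd2 was at 3.21, 3.11, 3.0 and 3.24 and differed from B16 by no more than 0.21 in size. B16-R2L thus had less Ccnd1 and more Ccnd3 signal than the other lines. Ccne1, the cyclin of Cdk2, lay between 1.51 and 1.61 on all 4 arrays as centred, but its differences from B16 reached 0.37, 0.60 and 0.49 in the derived lines under other settings, and Ccne2 was not detected on any.

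**Figure D2:**
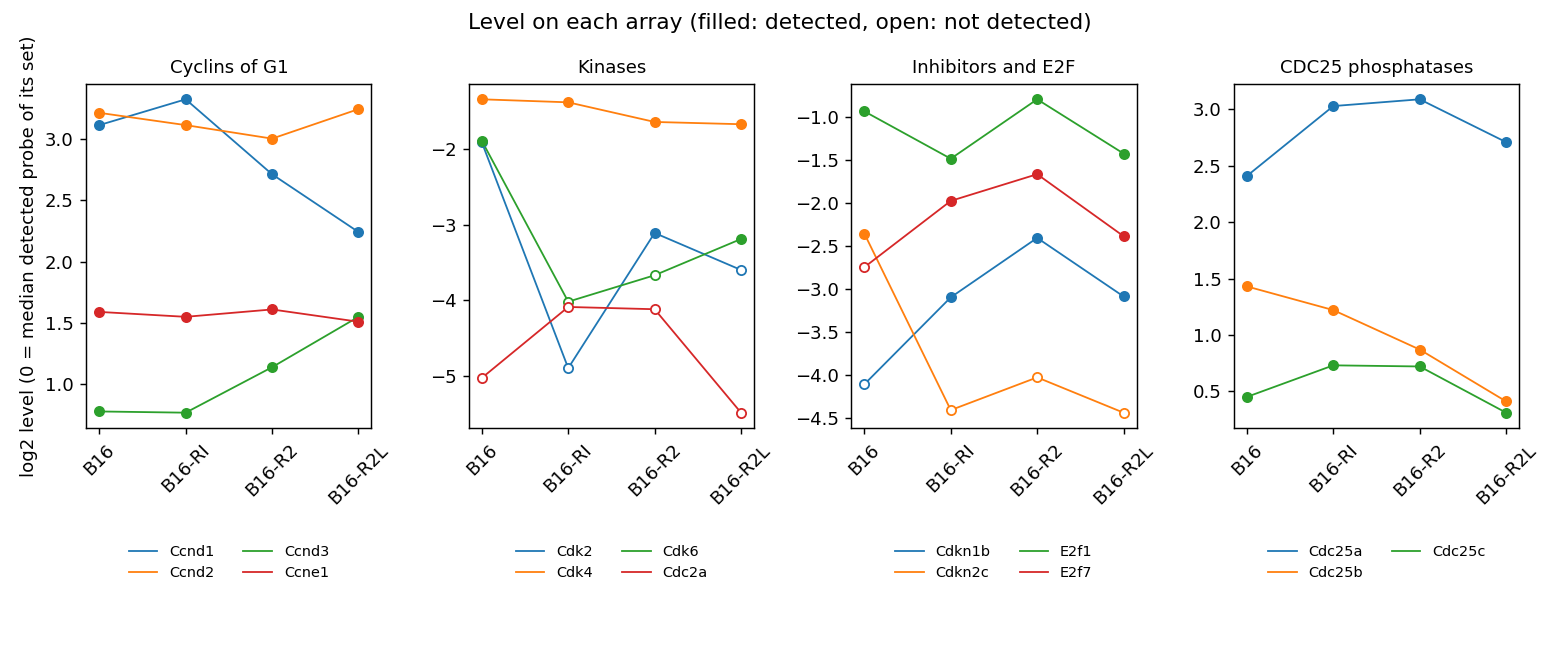
log2 level (vertical axis, 0 is the median detected probe of the same set) on each of the 4 arrays for G1 cyclins, kinases, inhibitors with E2F factors, and CDC25 phosphatases. Filled points were detected and open points were not, and the lines only join the values of a gene; Cdk2, Cdk6 and Cdkn2c are highest in B16, Cdkn1b and E2f7 are lowest there, and Ccnd1 and Cdc25b are lowest in B16-R2L.

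Of the E2F factors, 5 of 6 were detected on every array, with medians of -0.18, 0.24 and 0.11. E2f7 (mCG122236.1) was at -2.75 in B16, where it missed the limit at S/N 2.98, and at -1.98, -1.67 and -2.39 in the derived lines. It was 2.11-fold higher in B16-R2 as a bound, past 2-fold under all 8 settings. E2f1, the activating factor of S phase entry, was at -0.94, -1.49, -0.80 and -1.43. It was lower in B16-RI (-0.55) and B16-R2L (-0.49) than in B16, and close to B16 in B16-R2 (0.13). E2f4, a repressor in resting cells, was at 1.33, 1.32, 1.80 and 1.79, with B16-R2 and B16-R2L higher than B16 by 0.47 and 0.46. The probe of E2f2 is listed with a second symbol, so its values (0.56, 0.28, 0.79 and 0.36) may belong to either gene.

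Among the CDC25 phosphatases, which switch on the cyclin kinases, Cdc25a and Cdc25b took opposite courses. Cdc25a was at 2.41 in B16 and at 3.03, 3.09 and 2.71 in the derived lines, so that it was 1.54-, 1.61- and 1.23-fold higher. Cdc25b (mCG18514.2) was at 1.43, 1.22, 0.87 and 0.41, and was 2.02-fold lower in B16-R2L than in B16. That value passed 2-fold under 7 of 8 settings (-1.34 at the extreme) and was larger than the 90th percentile of the gap between probes of 1 gene (0.80). Cdc25b and Cdk6 were the calls of B16-R2L over B16 that were detected on both arrays. Cdc25c changed little, at 0.45, 0.73, 0.72 and 0.31.

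The cyclins and effectors of mitosis were mixed in B16-R2L. Ccna2, the cyclin of S phase and G2, was at 2.83, 3.33, 3.31 and 2.90. It was 0.49 and 0.48 above B16 in the lymph node lines and 0.07 above it in B16-R2L, where the sign changed with the scaling (-0.23 to 0.08). Ccnb2, a mitotic cyclin, differed from B16 by 0.16, 0.06 and -0.06, and over the settings by -0.15 to 0.16, -0.23 to 0.49 and -0.41 to -0.05. Ccnb3 was detected in B16-R2L alone (S/N 5.10), 2.71-fold above B16 as a bound. The 6 genes of mitosis and its checkpoint had medians of 0.27, 0.31 and 0.10. Top2a, the topoisomerase that untangles replicated chromosomes, was at 2.02, 2.31, 2.49 and 2.49. Cdc20, an activator of the anaphase-promoting complex, was at 3.20, 3.77, 3.64 and 3.57 by its brighter probe. Its second probe was detected in B16-RI alone (S/N 12.1), 16.6-fold above B16 as a bound, so the probes of this gene disagreed in B16-RI. Mad2l1, a spindle checkpoint gene, had 2 probes detected on every array, with differences from B16 of 0.41 and 0.19 for B16-RI, 0.34 and 0.04 for B16-R2 and -0.14 and -0.28 for B16-R2L. Ccna1 and Cdc2a were not detected on any array. Cdc2a is the transcript of Cdk1, which dividing cells require, and its probe gave no level here.

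Most members were lower in B16-R2L than in B16-R2, both derived from B16-RI. Over the 47 members the median of B16-R2L minus B16-R2 was -0.11 (-0.03 over all genes), and 9 lay above 0 (19.1%, against 46.9%). At least 2-fold higher was 1 of 54 members (1.85%, against 6.56% of all genes), and 0 were 2-fold lower (0.0%, against 4.85%). The called member was Tyms, 3.0-fold higher in B16-R2L as a bound. On the deposited values 2 of 54 members were 2-fold lower (3.7%, against 7.48% of all genes). The 17 detected genes of the G1/S list, which includes the MCM helicase, had a median of -0.31, and 2 of them lay above 0. The lowest were Mcm4 at -0.70, Pole2, a subunit of polymerase epsilon, at -0.68 and E2f1 at -0.62. The 10 detected genes of the G2/M list had a median of -0.33 and none lay above 0, with Mad2l1 at -0.48 and Bub1, a checkpoint kinase, at -0.41. The 3 lowest G1/S values lay below the 5th percentile of all genes (-0.56), and the 90th percentile of the gap between probes of 1 gene was 0.70. The median of the members relative to all genes was negative under each scaling and filter tried, from -0.25 on the deposited values to -0.08 when centred by signal level. In that last setting 15 of 47 members lay above 0 (31.9%, against 50.7% of all genes), and after quantile normalization 16 of 47 did (against 50.5%).

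**Figure D3:**
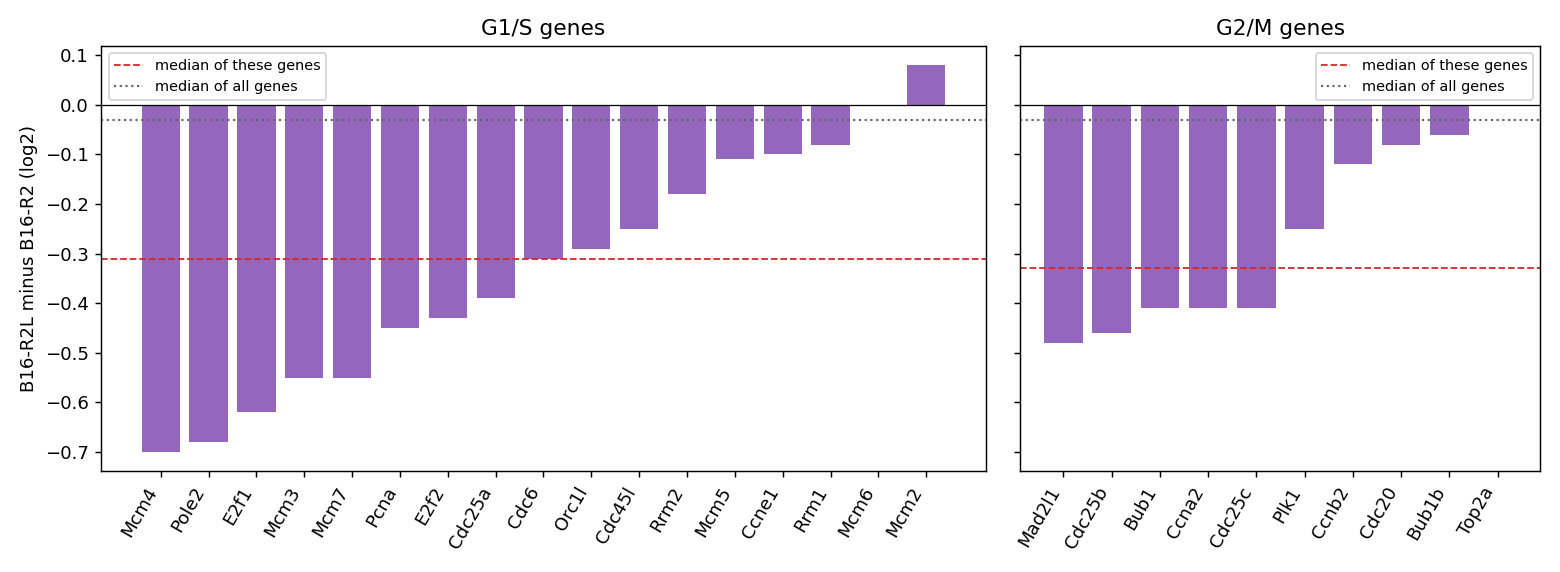
Difference in log2 level between B16-R2L and B16-R2 (vertical axis) for each G1/S and G2/M gene detected on all arrays, 1 bar a gene. The dashed line is the median of the genes shown (-0.31 and -0.33) and the dotted line that of all genes (-0.03); nearly all bars lie below 0, down to -0.70 for Mcm4.

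In B16-R2 over B16-RI, consecutive lymph node lines, the members had a median of 0.04, against 0.01 over all genes, with 24 of 47 above 0. Of 51 members 1 was at least 2-fold higher (1.96%, against 5.18%) and 1 lower (1.96%, against 5.59%). The higher was Cdk2, 3.47-fold as a bound, which left it 2.30-fold below B16. The lower was Tyms, 5.02-fold as a bound. E2f1 differed by 0.69 and Ccnd1 by -0.61.

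Set over the 4 arrays, 36 of the 47 members were highest in B16-RI or B16-R2 (76.6%, against 48.2% of all genes), and 38 were lowest in B16 or B16-R2L (80.9%, against 59.2%). The first count was 24 (51.1%, against 38.7%) after quantile normalization and 30 (63.8%, against 43.1%) when centred by signal level. The probes of the members were brighter than most, with a median level of 1.72 against 0.25 over all genes, and when centred by signal level the excess over all genes was 0.11 in B16-RI and 0.19 in B16-R2. The part of probe brightness in the shift was not tested further.

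**Figure D4:**
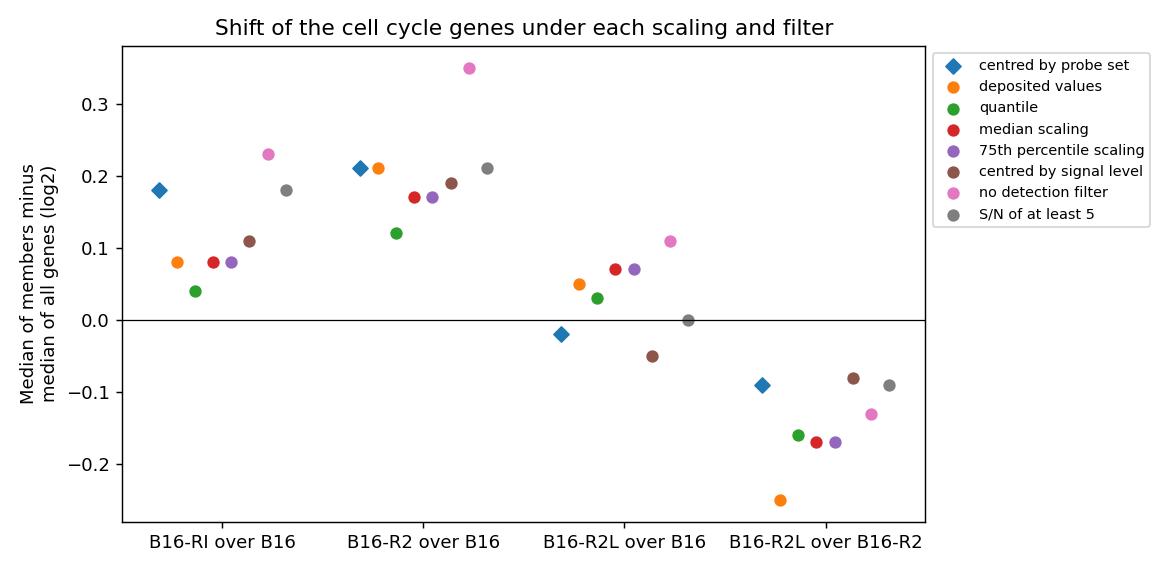
Median difference of the members minus that of all genes (vertical axis, log2) in 4 comparisons under 8 scalings and filters. Diamonds are the values reported and circles the alternatives; B16-RI over B16 runs from 0.04 to 0.23, B16-R2 over B16 from 0.12 to 0.35, B16-R2L over B16 lies on both sides of 0, and B16-R2L over B16-R2 runs from -0.25 to -0.08.

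The study focused on genes that rose with each passage, and genes that fell were counted here as well. No member rose at each step from B16 through B16-RI and B16-R2 to B16-R2L by 2-fold in total, as 65 of 7444 genes did (0.873%). Cdc25b was the 1 member that fell at each step by that much, as 64 genes did (0.86%). With no limit on size, 3 members rose at each step (518 genes, 6.96%) and 3 fell (472 genes, 6.34%). Named after their values were seen, those that fell were Cdc25b, Cdk4 and Orc4l, and those that rose Pola2, Pold1 and Mcm6. The last step is not a passage, since B16-R2 and B16-R2L come from the same round.

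Members with an E2F match in the promoter window had higher medians over B16 than the others, as centred here. Values of this split under other scalings, or for all genes with a match, are not given. The 8 with a match that were detected on every array had medians of 0.35, 0.56 and 0.30 in the 3 derived lines. The 32 without had medians of 0.18, 0.22 and -0.07. In B16-R2L minus B16-R2 the order was the other way, with medians of -0.30 with a match and -0.10 without. The ranges overlapped widely in B16-R2 over B16, at 0.13 to 0.69 with a match and -0.55 to 0.68 without. Cdc25a, Cdc6, Orc1l and Mcm5, whose stretches are printed above, made up the upper end of the first range. E2f7, also with a match, was higher only as a bound, and Cdk2, with a match, was lower.

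By position, 3 of the 47 members (E2f4, Mcm5 and Orc6l) lie on chromosome 8 of GRCm38.p6. In B16-R2L their differences from B16 were 0.46, 0.49 and -0.09, where the other 44 members had a median of -0.03. All 405 genes of that chromosome detected on every array had a median of 0.36 in B16-R2L, against -0.02 for the 6806 genes elsewhere. The corresponding medians were 0.06 and 0.03 in B16-RI and 0.09 and 0.02 in B16-R2. The higher E2f4 and Mcm5 signals in B16-R2L thus coincided with a shift of the whole chromosome, but both genes were as high in B16-R2 (0.47 and 0.60), where the chromosome's median was 0.09. Whether the chromosome plays a part in these values was not tested.

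Of 67 further cell cycle genes, listed apart from the rule, 58 were on the array and 55 detected on every array. Their medians over B16 were 0.19, 0.18 and 0.06 in the 3 derived lines, with -0.14 in B16-R2L minus B16-R2. Of 57 compared in B16-RI, 1 was at least 2-fold higher (1.75%, against 6.07% of all genes) and 2 lower (3.51%, against 8.5%). In B16-R2, 2 of 57 were higher (3.51%, against 5.76%) and 1 lower (1.75%, against 8.3%). In B16-R2L, 1 of 56 was higher (1.79%, against 6.9%) and 0 lower (0.0%, against 7.46%). Rb1, the retinoblastoma protein that holds E2F in check, was detected in B16-RI (S/N 4.25) and B16-R2 (S/N 5.25) but not in B16 or B16-R2L, with levels of -4.68, -2.77, -2.54 and -5.02. Cdkn1c, which encodes the CDK inhibitor p57, was at -2.81, -4.02, -3.86 and -1.78. It was not detected in the lymph node lines and was highest in B16-R2L, 1.03 above B16. Kif23, a kinesin of cytokinesis, was at 1.14, 1.89, 2.24 and 1.77, 1.09 higher in B16-R2. Chek2, a DNA damage kinase, had a difference of -1.01 in B16-RI. Rbl2, a relative of Rb1 on chromosome 8, was 1.15 higher in B16-R2L than in B16-R2. Aurka, the mitotic kinase listed as Stk6, was at 3.06, 3.47, 3.29 and 2.61. As centred here it was lowest in B16-R2L, as Mcm4 and Bub1 were, but on the deposited values Mcm4 was lowest in B16.

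The arrays carried the melanocyte genes that B16 cells are known for. Tyr, Tyrp1, Dct, Pmel, Mitf and Slc45a2 were detected on all 4 arrays. Of the markers of macrophages, lymphocytes, endothelium, fibroblasts and lung epithelium, only the B-cell gene Cd79a was detected on every array. The pan-leukocyte gene Ptprc, the fibroblast gene Dcn and the lung gene Sftpc were detected on none, and Pecam1, Csf1r, Cd3g, Lum, Sftpb and Scgb1a1 were each detected on 1 or 2 arrays at S/N values under 5.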

How the data were processed

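Signals of 4 arrays, 1 per line, were used. The authors deposited a raw intensity and a normalized intensity for each probe, with a signal-to-noise ratio and a flag, both scores of the analyzer. In the deposited normalized intensity the raw signal is divided by 1 of 2 constants per array (16524 and 16488 probes). It was not quantile normalized, which the methods name, so quantile normalization was an alternative. Another 20 value columns and 10 ratio columns of second arrays matched no sample label and were not used, nor were log2 columns and ratios derived by the authors. Here log2 of the deposited normalized intensity was centred on the median of probes of the same set detected on all 4 arrays. Where a compared array did not detect a probe, its own signal or, if higher, the dimmest detected signal of the set was used. Such a difference is called a bound, though it is no strict limit. All 58 members matched a RefSeq gene table (GRCm38.p6), 8 under another current symbol. Named genes were those past 2-fold over B16, the 2 largest differences per role, and fixed cell cycle genes. Mcm4, Mcm5, Pole2, Bub1, Ccnd2, Cdc25c, E2f2, Mad2l1, Cdkn1a and Cdkn2d lie outside that rule and were added with their values in view. Members and lists were chosen with earlier results of these data known. Alternatives were other scalings, detection limits, probe rules and fold limits. Scripts (Python 3.11.15, numpy 2.4.6, pandas 2.3.3) were tested on simulated data. The number of arrays limits precision.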

Additional observations from a re-analysis of the deposited data

How the results depend on the processing

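No paired analysis was possible because the columns of second arrays matched no sample label and 1 array per line was used, and for the same reason no replicate was left out. A value was taken as moved where it shifted by more than the spread between probes of 1 gene, a count where it changed by over 1.5 times. That spread is a limit for single genes and too wide to show that a median is stable. Against the standard error of a median, 17 of 55 alternative member medians and 66 of 270 of the role lists moved, 3 of the latter with a change of sign. This limit and centring by signal level were chosen after seeing the data. The excess of the members over all genes ran from 0.04 to 0.23 for B16-RI, 0.12 to 0.35 for B16-R2, -0.05 to 0.11 for B16-R2L (each over B16), 0.01 to 0.12 for B16-R2 over B16-RI and -0.25 to -0.08 for B16-R2L over B16-R2. Of the role lists, against the wider limit, polymerases and clamp in B16-RI reversed to -0.04 after quantile normalization, and 5 values moved: S and M cyclins to 0.01 (B16-RI) and -0.34 (B16-R2L) after quantile normalization and to 0.60 (B16-R2) without a detection filter, and nucleotide supply to -0.26 (B16-R2) and 0.48 (B16-R2L) without that filter. Of 140 alternative counts, 38 moved. For members higher in B16-RI, B16-R2, B16-R2L (each over B16), B16-R2 over B16-RI and B16-R2L over B16-R2, in this order, the counts were 0 throughout with a 4-fold limit or with detection required on both arrays. Of all genes, 1.96%, 1.39%, 1.93%, 0.705% and 1.62% were higher at 4-fold, and 1.53%, 1.62%, 2.18%, 0.952% and 1.58% with detection on both arrays. With a 1.5-fold limit they moved to 5 (9.43%, against 10.9% of all genes), 7 (13.5%, against 11.8%), 3 (B16-R2 over B16-RI, 5.88% against 10.4%) and 2 (B16-R2L over B16-R2, 3.7% against 11.8%). On deposited values they moved to 4, 7, 6 and, in B16-R2 over B16-RI, 3 (5.88%, against 8.22%). Median scaling gave 8 in B16-R2 (15.4%, against 12.9%) and 6 in B16-R2L (10.9%, against 12.5%). An S/N of at least 5 gave 0 in B16-RI (against 3.66%) and 1 in B16-R2L (1.92%, against 4.92%), 75th percentile scaling 1 in B16-RI (1.89%, against 6.48%), and centring by level 1 in B16-RI (1.89%, against 6.58%) and 2 in B16-R2 over B16-RI (3.92%, against 6.68%). For members lower, detection on both arrays gave 0 in B16-RI, 1 in B16-R2, 2 in B16-R2L (4.17%, against 2.54%) and 0 in B16-R2 over B16-RI (against 1.43%). A 4-fold limit gave 0 in B16-R2 (against 2.63%) and 1 in B16-R2L (1.82%, against 2.31%), and left 3 in B16-RI (5.66%, against 2.09%). In B16-R2 over B16-RI, the count was 2 with no filter, with the median over probes and with a 1.5-fold limit (3.45%, 3.92% and 3.92%, against 11.3%, 5.77% and 9.38%), and 0 at an S/N of at least 5 (against 2.57%). In B16-R2L over B16-R2 it was 2 on deposited values, 1 with no filter (1.72%, against 6.24%) and 5 with a 1.5-fold limit (9.26%, against 9.81%). Of 553 alternative values for named genes, 116 moved and 0 reversed a called value. The probe rules cannot change a gene with a single probe, so part of the unmoved values was fixed in advance. Causes were not tested. Dim probes such as Cdk2, Cdk6, Cdkn1b, Cdkn2c and Tyms lie near or below the detection limit on some arrays, so most of their differences from B16 are bounds.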
